A study of Caenorhabditis elegans with 48 samples.

Results

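The miR-58 family of Caenorhabditis elegans, whose members share their seed with the bantam miRNA of Drosophila, was followed hour by hour in lin-28(0) and WT larvae. Its members were all strands of the count table named miR-58, miR-80, miR-81, miR-82 or miR-2209a, both strands of each hairpin. This gave 13 of the 437 strands listed. Of these 13, 9 had a mean of at least 10 counts per library and were tested, among 246 tested strands in all. The other 4 (miR-58b-5p, miR-58b-3p, miR-58c and miR-2209a-5p) were close to the limit of detection and are given as counts only.

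A miRNA hairpin yields a pair of strands. The guide is loaded into an Argonaute protein and pairs through its seed with target mRNAs, while the passenger strand is mostly degraded. Here the guide is the strand of a hairpin with the higher mean over all libraries, which was the 3p strand for miR-58a, miR-80, miR-81, miR-82 and miR-2209a. In flies, bantam promotes growth and blocks programmed cell death. In worms, the members of the family act redundantly, and animals without miR-58, miR-80, miR-81 and miR-82 are small, lay eggs poorly and fail to form dauer larvae. Known targets of the worm family include components of TGF-beta signalling and the p38 kinase gene pmk-2. No sequences of these miRNAs are printed here.

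Both strains carried xeSi312, a luciferase and GFP reporter under the broadly active eft-3 promoter on chromosome IV. The lin-28(0) animals (strain HW2706) additionally carried lin-28(xe192), a deletion of the gene for the RNA-binding protein LIN-28, which blocks let-7 maturation. The WT animals (strain HW1993) had the reporter alone. Synchronised larvae of each strain grew with OP50 bacteria in liquid culture at 25°C, and 1 library per genotype was made from whole animals at each hour from 0 to 23 h, giving 24 lin-28(0) and 24 WT libraries. Each genotype was a single culture, so that p-values measure the spread between hours of 1 culture per genotype. Levels are given as CPM, the counts of a strand for every 1000000 counts that its library held over all strands. A CPM value tells what fraction of the sequenced miRNAs a strand formed, not how many molecules an animal contained.

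The libraries held 2996370 to 15317364 counts in lin-28(0) and 2315421 to 20757531 counts in WT. The let-7 guide let-7-5p exceeded WT in lin-28(0) at 24 of 24 hours, with 670.7 to 47208 CPM in lin-28(0) and 7.39 to 1892 CPM in WT. Of the 4 tissue markers listed for these whole animals (miR-1-3p of muscle, miR-124-3p of neurons, miR-60-3p of intestine and miR-228-5p of glia and seam), all 4 were counted in every library. The libraries made from lin-28(0) at 1, 2 and 3 h lay outside the range of the other lin-28(0) libraries in 1 of these. In them miR-228-5p was at 59883 to 77264 CPM, against 16743 to 30905 CPM in the other lin-28(0) libraries and 17215 to 30028 CPM in WT. There miR-1-3p was at 27271 to 29610 CPM, within the 24766 to 67494 CPM of the other lin-28(0) libraries but below their median of 48791 CPM. The WT libraries of 1 to 3 h had 46775 to 76227 CPM of miR-1-3p. Fitted results that rest on the lin-28(0) libraries of 1 to 3 h are given with and without them.

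The family made up 25.4% of all miRNA counts of the series, and 99.6% of its own counts came from miR-58a-3p, miR-80-3p, miR-81-3p and miR-82-3p. Its share of a library ran from 19.7% (1 h) to 32.4% (22 h) in lin-28(0), with a median of 26.6%, and from 20.0% (0 h) to 32.8% (18 h) in WT, with a median of 26.2%. The share was thus at its lowest in the first hours and at its highest late in both genotypes. In the first 4 hours it stood at 20.9% ± 1.22 in lin-28(0) and 22.5% ± 1.76 in WT (SD, n = 4 hours each). In the last 4 hours it stood at 31.1% ± 0.99 in lin-28(0) and 31.0% ± 0.58 in WT (SD, n = 4 hours each). The first and last hours did not overlap in either genotype. The 95% Wilson interval of a single library reached at most 0.0568 percentage points to either side, which covers counting error only.

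**Figure D1:**
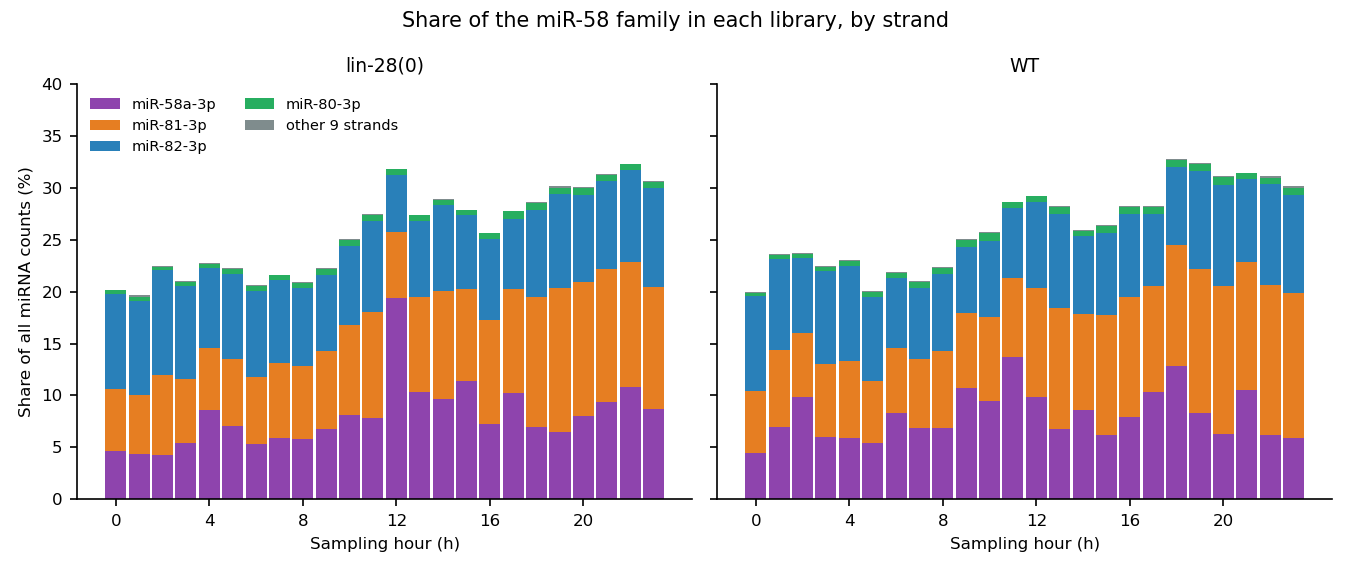
Share of all miRNA counts (%, vertical axis) taken by the family in each library of lin-28(0) (left) and WT (right) by sampling hour (h), with each bar divided into miR-58a-3p, miR-81-3p, miR-82-3p, miR-80-3p and the other 9 strands. The bars rise over time in both genotypes, to 32.4% at 22 h in lin-28(0) and 32.8% at 18 h in WT, and the miR-58a-3p part is largest at 12 h in lin-28(0) and at 11 h in WT.

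Between the genotypes, the summed share differed by less than its spread between hours. It averaged 25.8% ± 4.21 in lin-28(0) and 26.4% ± 4.05 in WT (SD, n = 24 hours each). The difference at equal hours was -0.58 ± 1.87 percentage points (mean ± SD), with lin-28(0) higher at 8 and lower at 16 of 24 hours. No test was run on this sum.

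For comparison, the tested strands listed for 3 other families were summed in the same libraries. These were 7 strands of the miR-35 family, 6 of the miR-51 family and 3 of the miR-72 family. All were listed as guides, but miR-42-3p of the miR-35 family was the less abundant strand of its hairpin here. The miR-35 family, which acts in the embryo, took 0.224% of the counts in the last 4 hours against 0.897% in the first 4 hours in lin-28(0), and 0.0945% against 0.397% in WT. The miR-51 family took 1.22% against 3.75% in lin-28(0) and 1.13% against 2.23% in WT, and the abundant miR-72 family 11.5% against 14.3% in lin-28(0) and 11.0% against 14.6% in WT. The sum of the 5 guides of the miR-58 family had moved the other way. It was 31.0% against 20.8% in lin-28(0) and 30.9% against 22.4% in WT. These guides did not all rise, since in WT 2 of the 5 passed upward and 1 downward in the test of change described next. Since all these sums are shares of the same total, they are not independent of each other, and the contrast between families was not tested.

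The first question was how the members change during larval growth. Change was tested as the fitted level at 20 to 23 h minus that at 0 to 3 h, with a threshold of 0.01 on p-values adjusted over all tested strands. In lin-28(0), 7 of the 9 members passed, 6 upward and 1 downward, where 65.4% of all tested strands passed (31.3% upward and 34.1% downward). In WT, 4 of the 9 passed, 3 upward and 1 downward, where 62.6% of all tested strands passed (28.9% upward and 33.7% downward). The broader test of any change over the 24 hours was passed by 7 members in lin-28(0), where 82.5% of all tested strands did, and by 6 in WT, where 72.8% did. The median change of the 9 members was 0.84 on the log2 scale in lin-28(0) and 0.57 in WT, against -0.13 and -0.10 over all tested strands. Whether a member that passed in lin-28(0) alone changed differently in WT was tested separately and held for miR-80-5p only, as described further on. Within whole animals, a change in the number of cells that make a miRNA cannot be told apart from a change in its level per cell.

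Among the guides, miR-81-3p rose in both genotypes. It ran from 57013 CPM (1 h) to 138475 CPM (19 h) in lin-28(0), with a median of 87484 CPM, and from 59111 CPM (0 h) to 145236 CPM (22 h) in WT, with a median of 87435 CPM. In the last 4 hours it averaged 123887 ± 5987 CPM in lin-28(0) and 138073 ± 9432 CPM in WT, against 63845 ± 9213 and 66385 ± 6928 CPM in the first 4 hours (SD, n = 4 hours each). All last hours were above all first hours in both genotypes. The fitted rise was 1.06 ± 0.14 in lin-28(0) (log2 ± SE, adjusted p = 2.4e-08) and 1.17 ± 0.14 in WT (adjusted p = 3.3e-09).

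Its neighbour miR-82-3p, made from an adjacent hairpin gene on the X chromosome, stayed within a narrower range. It ran from 55447 CPM (12 h) to 100936 CPM (2 h) in lin-28(0), with a median of 83175 CPM, and from 64037 CPM (9 h) to 97577 CPM (20 h) in WT, with a median of 79935 CPM. In both genotypes its mean was lowest at 8 to 15 h, with 74286 ± 9438 CPM in lin-28(0) and 75722 ± 8349 CPM in WT (SD, n = 8 hours each). This low mean was not tested by itself. The fitted change of miR-82-3p from the first to the last 4 hours did not pass in lin-28(0) (adjusted p = 0.962) or in WT (adjusted p = 0.234). The test of any change over the 24 hours did pass in WT (adjusted p = 0.00453) and not in lin-28(0) (adjusted p = 0.08).

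As a result, the order of the neighbours turned over. miR-82-3p was the more abundant of the pair through 8 h in lin-28(0) (9 hours) and through 7 h in WT (8 hours), and miR-81-3p at every later hour (15 in lin-28(0) and 16 in WT). The log2 ratio of miR-81-3p to miR-82-3p was -0.56 ± 0.13 in lin-28(0) and -0.37 ± 0.19 in WT over the first 4 hours, and 0.49 ± 0.16 in lin-28(0) and 0.58 ± 0.04 in WT over the last 4 hours (SD, n = 4 hours each). At equal hours the ratio was below WT in lin-28(0) at 17 of 24 hours, by 0.09 ± 0.13 on average (mean ± SD), which is within the spread between hours and was not tested. The guides of miR-81 and miR-82 are closely related, and the way in which reads that align to several loci were shared between them could change their separate values, but less so their sum.

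**Figure D2:**
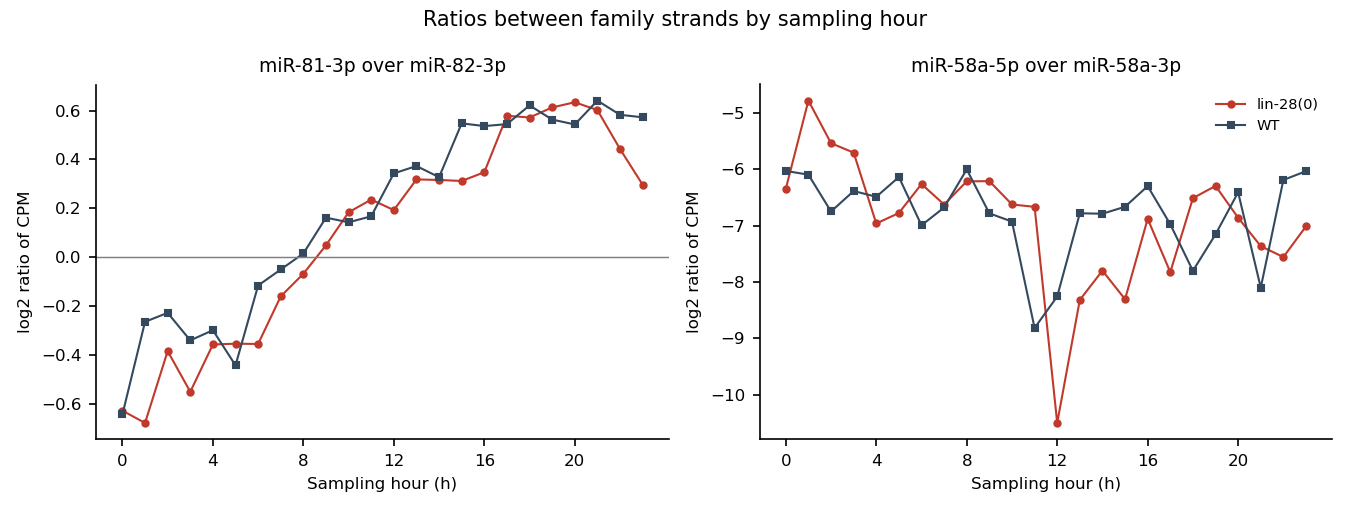
Log2 ratio of CPM (vertical axes) of miR-81-3p over miR-82-3p (left) and of miR-58a-5p over miR-58a-3p (right) in each library by sampling hour (h), with lin-28(0) in red circles and WT in dark squares. The first ratio crosses 0 between 8 and 9 h in lin-28(0) and between 7 and 8 h in WT, and the second is lowest at 12 h in lin-28(0) and at 11 h in WT.

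miR-80-3p, the guide of a hairpin on chromosome III, was the fourth strand of the family by level. It ran from 2973 CPM (2 h) to 6906 CPM (17 h) in lin-28(0), with a median of 5398 CPM, and from 2887 CPM (0 h) to 8230 CPM (20 h) in WT, with a median of 5943 CPM. It rose by 0.84 ± 0.11 in lin-28(0) (log2 ± SE, adjusted p = 1.1e-08) and by 1.08 ± 0.11 in WT (adjusted p = 4.2e-11). Its average genotype difference was small and negative, -0.13 ± 0.05, and did not pass (adjusted p = 0.0264). The lin-28(0) level was the lower one at 17 of 24 hours, including 8 of 8 hours from 8 to 15 h. With other scalings it passed, as with DESeq2 size factors (-0.17, adjusted p = 0.00338) or with the scaling taken from strands outside the family (-0.16, adjusted p = 0.00919). Over 16 alternative settings the adjusted p ran from 2.1e-05 to 0.384.

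miR-58a-3p had the widest swings among the abundant guides. It ran from 42592 CPM (2 h) to 194165 CPM (12 h) in lin-28(0), with a median of 75492 CPM, and from 44714 CPM (0 h) to 137187 CPM (11 h) in WT, with a median of 74372 CPM. The highest hour stood out from its neighbours in lin-28(0), where 78139 CPM were counted at 11 h and 103705 CPM at 13 h. In WT the neighbouring 10 h and 12 h had 94250 and 98967 CPM. These were shallow libraries, with 2996370 counts at 12 h in lin-28(0), the fewest of that genotype, and 3444437 counts at 11 h in WT. The WT libraries of 15 h (2315421 counts) and 23 h (2704037 counts) were shallower still and had 61965 and 58464 CPM of miR-58a-3p. The part of depth in the peak was not tested. The intestinal marker miR-60-3p was at 279 CPM at 12 h in lin-28(0), against 68.5 and 219 CPM in the hours before and after, and at 223 CPM at 11 h in WT, against 73.2 and 248 CPM in the hours before and after. At 12 h in lin-28(0), miR-228-5p was at its lowest of all 48 libraries, with 16743 CPM against 28918 and 19910 CPM before and after, miR-1-3p was at 39045 CPM against 50720 and 67494 CPM, and miR-124-3p at 45.4 CPM against 27.2 and 34.9 CPM. At 11 h in WT, miR-228-5p was at 21194 CPM against 24012 and 24215 CPM, miR-1-3p at 50044 CPM against 64716 and 48664 CPM, and miR-124-3p at 34.8 CPM against 34.8 and 23.7 CPM. The part of these markers in the miR-58a-3p peak was not tested.

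The change of miR-58a-3p over the time course was 0.83 ± 0.22 in lin-28(0) (log2 ± SE, adjusted p = 0.00105) and 0.36 ± 0.22 in WT (adjusted p = 0.134), and these changes were not shown to differ (0.47 ± 0.31, adjusted p = 0.317). With 1 to 3 h left out of lin-28(0), the change of miR-58a-3p there was 0.19 (adjusted p = 0.64, against 1.4e-05 at the lowest over 15 alternative settings) and did not pass. The fitted level at 0 to 3 h then rested on the 0 h library (46744 CPM) and on interpolation towards 4 h (85738 CPM). The 0 h library itself was below the mean of the last 4 hours, 92293 ± 11973 CPM (SD, n = 4 hours). In the 3 libraries of 1 to 3 h, miR-58a-3p averaged 46634 ± 6588 CPM (SD, n = 3 hours), against 67041 ± 14377 CPM at 4 to 7 h (SD, n = 4 hours).

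**Figure D3:**
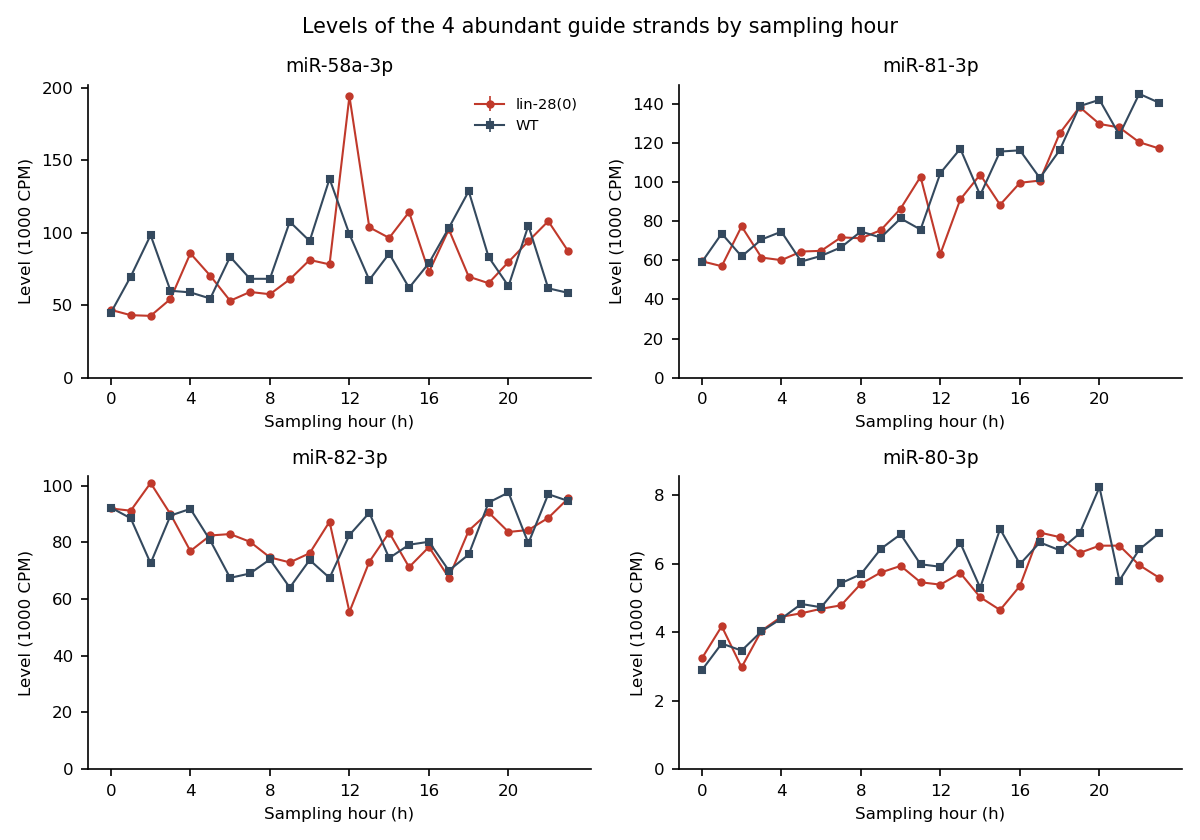
Level (1000 CPM, vertical axes from 0) of the guides miR-58a-3p, miR-81-3p, miR-82-3p and miR-80-3p in each library by sampling hour (h), with lin-28(0) in red circles, WT in dark squares and exact 95% Poisson intervals that are mostly smaller than the symbols. miR-81-3p and miR-80-3p rise in both genotypes, miR-82-3p stays between 55447 and 100936 CPM, and miR-58a-3p peaks at 194165 CPM at 12 h in lin-28(0) and at 137187 CPM at 11 h in WT.

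By mean level the 9 tested members ranked in the same order in both genotypes. miR-81-3p had 89968 ± 26068 CPM in lin-28(0) and 95388 ± 29543 CPM in WT, followed by miR-82-3p with 81802 ± 9927 and 81092 ± 10455 CPM and miR-58a-3p with 80290 ± 31915 and 80874 ± 23955 CPM (SD, n = 24 hours each). These 3 did not differ beyond their spread, and each was the most abundant of the family at some hours. miR-58a-3p led at 5 hours in lin-28(0) and 7 in WT, miR-81-3p at 11 and 11, and miR-82-3p at 8 and 6. After miR-80-3p (5254 ± 1044 and 5670 ± 1305 CPM) came miR-58a-5p (686 ± 279 and 725 ± 206 CPM), miR-80-5p (165 ± 84.7 and 200.4 ± 58.2 CPM) and miR-81-5p (14.9 ± 9.66 and 14.4 ± 9.33 CPM), in lin-28(0) and WT in this order. The lowest tested members were miR-2209a-3p, with 8.30 ± 3.60 CPM in lin-28(0) and 5.84 ± 2.41 CPM in WT, and miR-82-5p, with 3.96 ± 2.37 and 2.89 ± 2.48 CPM. Levels of different strands also depend on how well each is ligated and amplified, which was not corrected.

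The second question was which members differ between lin-28(0) and WT. On average over the hours, 2 of the 9 members passed the threshold, miR-2209a-3p upward and miR-80-5p downward, where 22.8% of all tested strands passed (16.3% upward and 6.5% downward). These 2 and no other member also passed when any difference over the time course was tested (adjusted p = 0.0019 and 6.6e-05), as did 28% of all tested strands. At an unadjusted p under 0.05 there were 4 of the 9 members, against 106 of all 246 tested strands. The median difference of the 9 was -0.07 on the log2 scale, against 0.04 over all tested strands. None of the 4 abundant guides passed. Their average differences were -0.07 ± 0.09 for miR-58a-3p, -0.11 ± 0.06 for miR-81-3p, -0.02 ± 0.06 for miR-82-3p and -0.13 ± 0.05 for miR-80-3p (log2 ± SE), with adjusted p of 0.563, 0.181, 0.808 and 0.0264.

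The difference of miR-80-5p, the passenger strand of miR-80, lay in the first hours. At 0, 1, 2 and 3 h it had 31.1, 20.9, 18.8 and 28.4 CPM in lin-28(0), against 47.9, 208.2, 77.1 and 196.8 CPM in WT. At 4 to 7 h it had 131.9, 146.3, 109.6 and 165.2 CPM in lin-28(0), against 225.6, 174.0, 179.8 and 179.9 CPM in WT. The lin-28(0) level was the lower one at 8 of 8 of these hours, most of all at 1 to 3 h, and the WT levels of 0 to 3 h themselves differed more between neighbouring hours than those after them. Over all hours it ran from 18.8 CPM (2 h) to 299 CPM (20 h) in lin-28(0), with a median of 157 CPM, and from 47.9 CPM (0 h) to 302 CPM (11 h) in WT, with a median of 206 CPM.

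In the fit, miR-80-5p was lower in lin-28(0) than in WT by 1.41 ± 0.20 at 0 to 7 h (log2 ± SE, adjusted p = 1.1e-06). It had differences of -0.28 ± 0.19 at 8 to 15 h (adjusted p = 0.453) and 0.09 ± 0.20 at 16 to 23 h (adjusted p = 0.783). Its average over all hours was -0.53 ± 0.12 (adjusted p = 6.8e-04). At 0 to 7 h, 2 of the 9 members passed, miR-80-5p downward and miR-2209a-3p upward, where 19.9% of all tested strands did (6.1% downward and 13.8% upward). With 1 to 3 h left out of lin-28(0), where the fit was then interpolated between 0 h and 4 h, neither value passed. The early difference was then -0.82 (adjusted p = 0.0401) and the average -0.35 (adjusted p = 0.0264). These were the highest adjusted p among 16 alternative settings, of which the lowest were 1.9e-11 and 6.1e-06. The per-hour differences at 4 to 7 h, outside these libraries, averaged -0.46 ± 0.32 on the log2(CPM + 1) scale (SD, n = 4 hours) and ran from -0.77 to -0.12.

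The change of miR-80-5p over time differed between the genotypes. It rose by 2.80 ± 0.30 in lin-28(0) (log2 ± SE, adjusted p = 1.2e-10) and had a change of 0.57 ± 0.28 in WT, which did not pass (adjusted p = 0.0614). The WT change was 0.076 with hour 0 left out of both genotypes (adjusted p = 0.822), where the first hours were 1 to 3 h. It was 0.99 and passed (adjusted p = 0.00272) after the lin-28(0) hours were divided by a tempo factor of 1.12 and hours past 20 were dropped. WT hours were not rescaled there, but the last 4 hours compared ended at 20 h instead of 23 h. These are the ends of its range over 15 alternative settings, which thus do not all compare the same hours. The difference between the lin-28(0) and WT changes was 2.23 ± 0.40 (adjusted p = 1.7e-04), and 1 of the 9 members passed this test, where 6.1% of all tested strands did. With 1 to 3 h left out of lin-28(0) it was 1.26, again with an interpolated fit at these hours, and did not pass (adjusted p = 0.142, within a range of 7.4e-07 to 0.154 over 16 alternative settings). The guide of the same hairpin, miR-80-3p, had an early difference of -0.03 ± 0.08 at 0 to 7 h, which did not pass (adjusted p = 0.833). The passenger level was 0.699% ± 0.194 of that of the guide in lin-28(0) and 3.62% ± 1.97 in WT over the first 4 hours, and 3.43% ± 1.02 in lin-28(0) and 2.54% ± 0.519 in WT over the last 4 hours (SD, n = 4 hours each).

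**Figure D4:**
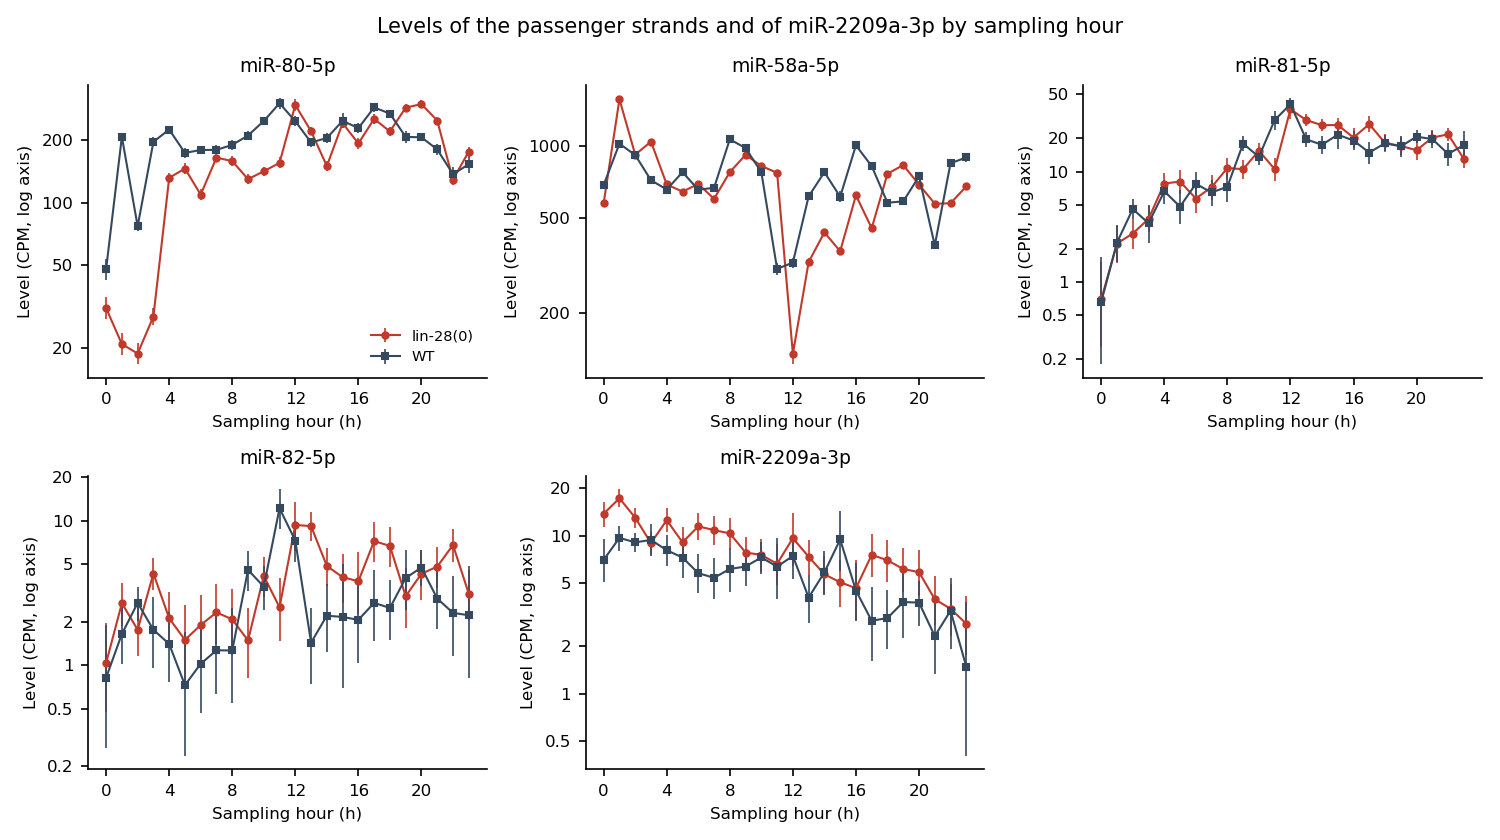
Level (CPM, log axes) of the passenger strands miR-80-5p, miR-58a-5p, miR-81-5p and miR-82-5p and of miR-2209a-3p in each library by sampling hour (h), with lin-28(0) in red circles, WT in dark squares and exact 95% Poisson intervals as bars. miR-80-5p is at 18.8 to 31.1 CPM at 0 to 3 h in lin-28(0), below the WT library of each of these hours, and miR-2209a-3p lies above WT at 21 of 24 hours.

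miR-2209a-3p, a rare member, was the only member to pass upward. It ran from 2.77 CPM (23 h) to 17.3 CPM (1 h) in lin-28(0), with a median of 7.58 CPM, and from 1.48 CPM (23 h) to 9.72 CPM (1 h) in WT, with a median of 6.02 CPM. The lin-28(0) level was the higher one at 21 of 24 hours, and the ranges of the genotypes overlapped. These levels rest on 22 to 226 counts per lin-28(0) library and 4 to 189 counts per WT library. The average difference between lin-28(0) and WT was 0.47 ± 0.09 (log2 ± SE, adjusted p = 1.8e-04), with 0.63 ± 0.14 at 0 to 7 h (adjusted p = 5.6e-04), 0.29 ± 0.15 at 8 to 15 h (adjusted p = 0.293) and 0.50 ± 0.17 at 16 to 23 h (adjusted p = 0.0345, from 4.7e-04 to 0.308 over 16 alternative settings).

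With 1 to 3 h left out of lin-28(0), the average of miR-2209a-3p still passed, and its early difference was 0.46 and did not pass (adjusted p = 0.155). Leaving out 1 to 3 h in both genotypes gave an average of 0.38 (adjusted p = 0.0141), and shifting the lin-28(0) hours by -2 h gave 0.28 (adjusted p = 0.0295). Over 16 alternative settings, the adjusted p ran from 2.4e-06 to 0.0295 for the average and from 7.8e-05 to 0.507 for the early difference. miR-2209a-3p was also the only member to pass downward over time, where it fell by 1.70 ± 0.21 in lin-28(0) (log2 ± SE, adjusted p = 2.6e-09) and by 1.60 ± 0.23 in WT (adjusted p = 1.6e-07). At equal hours, the genotype and the pace of growth of its single culture cannot be told apart.

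miR-82-5p, the passenger of miR-82, was above WT in lin-28(0) at 19 of 24 hours without passing the threshold. It ran from 1.04 CPM (0 h) to 9.34 CPM (12 h) in lin-28(0), with a median of 3.47 CPM, and from 0.729 CPM (5 h) to 12.2 CPM (11 h) in WT, with a median of 2.21 CPM, on 5 to 77 counts per library. Its average difference was 0.51 ± 0.18 (log2 ± SE, adjusted p = 0.023) and that at 16 to 23 h 0.82 ± 0.29 (adjusted p = 0.0413). Over time it rose by 1.15 ± 0.38 in lin-28(0) (adjusted p = 0.00632) and had a change of 1.06 ± 0.47 in WT (adjusted p = 0.0443, from 0.00934 to 0.318 over 15 alternative settings). The lin-28(0) rise was 1.45 and did not pass without 1 to 3 h (adjusted p = 0.0658), and over 15 alternative settings its adjusted p ran from 4.9e-04 to 0.0766. From 16 to 23 h no member passed, where 7.72% of all tested strands did, and 4 members had an unadjusted p under 0.05, as did 72 of the 246. These were miR-80-3p (-0.22), miR-81-3p (-0.21), miR-2209a-3p and miR-82-5p. From 8 to 15 h no member passed either, where 2.85% of all tested strands did, and no member had an unadjusted p under 0.05, against 43 of the 246.

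**Figure D5:**
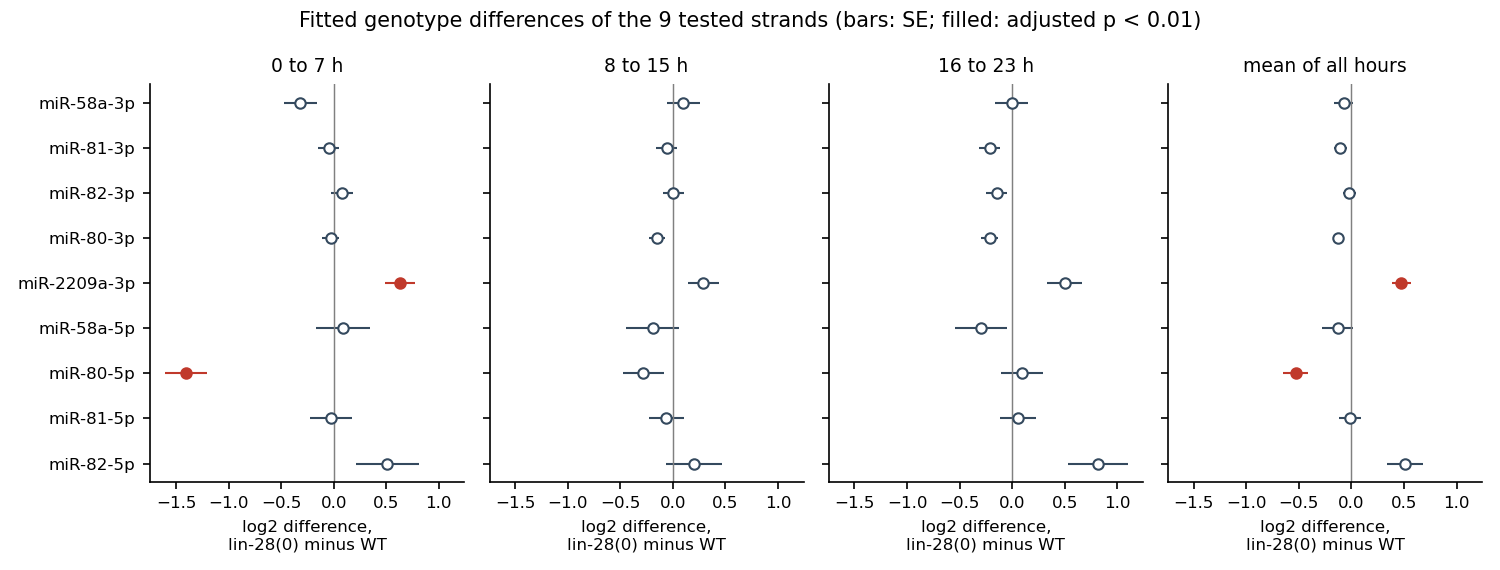
Fitted log2 difference of lin-28(0) minus WT (horizontal axes) of the 9 tested members in 3 windows and averaged over all hours, with bars of 1 SE and filled red symbols where the adjusted p is under 0.01. miR-80-5p (-1.41) and miR-2209a-3p (0.63) are filled at 0 to 7 h and in the average, and no other member is filled.

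The passengers of miR-81 and miR-58a did not differ between the genotypes beyond their spread, with averages of -0.01 ± 0.11 for miR-81-5p (log2 ± SE, adjusted p = 0.946) and -0.13 ± 0.15 for miR-58a-5p (adjusted p = 0.51). miR-81-5p had the steepest rise in the family. It ran from 0.691 CPM (0 h) to 36.7 CPM (12 h) in lin-28(0), with a median of 14.2 CPM, and from 0.656 CPM (0 h) to 40.8 CPM (12 h) in WT, with a median of 15.9 CPM. The rise was 3.03 ± 0.28 in lin-28(0) (adjusted p = 2.0e-12) and 3.05 ± 0.29 in WT (adjusted p = 4.1e-12). Over 15 alternative settings it ran from 2.12 to 4.10 in lin-28(0) and from 2.15 to 3.16 in WT. These rises are larger than those fitted for its guide, a contrast that was not tested. At 0 h the level of miR-81-5p rested on 6 counts in lin-28(0) and 4 counts in WT.

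miR-58a-5p went against its own guide. It was lowest, at 134 CPM (12 h) in lin-28(0) and 305 CPM (11 h) in WT, in the libraries in which miR-58a-3p was highest. Its highest levels were 1569 CPM (1 h) in lin-28(0) and 1065 CPM (8 h) in WT, and its medians 683 and 731 CPM. Across the hours, the log2 levels of the strands of miR-58a had a Pearson r of -0.82 in lin-28(0) and -0.40 in WT (n = 24 libraries each), whereas those of miR-81 had r of 0.61 and 0.69 and those of miR-80 r of 0.83 and 0.65. Those of miR-82 were also negative, with r of -0.45 in lin-28(0) and -0.18 in WT. These libraries share a culture and a total, so that r is a description. It was not recalculated without 12 h in lin-28(0), 11 h in WT or the lin-28(0) libraries of 1 to 3 h. In lin-28(0), miR-58a-5p averaged 1177 ± 346 CPM at 1 to 3 h (SD, n = 3 hours), against 656 ± 43.7 CPM at 4 to 7 h (SD, n = 4 hours). The log2 ratio of miR-58a-5p to miR-58a-3p was -10.5 at 12 h in lin-28(0) and -8.81 at 11 h in WT, against a median of -6.72 in lin-28(0) and -6.71 in WT.

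The passenger-to-guide ratio was compared per hairpin over the 24 hours by a two-sided sign-flip permutation test with 100000 resamples. No hairpin of the family passed, where 8.33% of the 84 hairpins tested did. For miR-80 the mean log2 ratio differed by -0.42 ± 1.02 (SD; lower at 15 of 24 hours; permutation p = 0.0517, adjusted p = 0.185). Over 4 alternative settings, which include leaving out 1 to 3 h, this difference ran from -0.42 to -0.096 (adjusted permutation p from 0.16 to 0.701). For miR-82 the difference was 0.38 ± 0.92 (SD; higher at 20 of 24 hours; permutation p = 0.0569, adjusted p = 0.185). For miR-81 it was 0.11 ± 0.63 (higher at 17 of 24 hours; adjusted permutation p = 0.588) and for miR-58a -0.10 ± 1.10 (higher at 11 of 24 hours; adjusted permutation p = 0.787).

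A rhythm with a period of 9 h was tested over 5 to 23 h. In WT, 1 of the 9 members passed, miR-82-5p with a log2 amplitude of 1.15 and a fitted peak at 1.87 h of each cycle (adjusted p = 7.8e-04), where 26.8% of all tested strands passed. Without WT 11 h and lin-28(0) 12 h, its amplitude was 0.85 and it did not pass (adjusted p = 0.0139, against 7.1e-04 at the lowest over 6 alternative settings). In lin-28(0) no member passed, where 16.3% of all tested strands did. The lowest adjusted p there were 0.0276 for miR-80-3p, with an amplitude of 0.15, and 0.0673 for miR-58a-3p, with an amplitude of 0.31. The rhythm of no member was shown to differ between the genotypes (14.2% of all tested strands were), with the lowest adjusted p of 0.0629 for miR-82-5p and miR-58a-3p.

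The strands outside the family whose log2 levels over all 48 libraries were most like those of each member, by Pearson r, differed between the members. miR-81-3p was most like miR-797-3p (0.92) and the let-7 relatives miR-241-5p (0.92) and miR-48-5p (0.91), which rise through larval life. miR-81-5p was most like miR-70-3p (0.90) and lin-4-5p (0.87), and miR-80-5p was most like miR-75-5p (0.91). miR-80-3p was most like miR-70-5p (0.88), and miR-2209a-3p was most like miR-50-5p (0.82). miR-58a-3p and miR-82-5p both had miR-46-3p among their nearest strands (0.78 and 0.82), and miR-58a-3p itself was nearest to miR-51-3p (0.80). miR-58a-5p and miR-82-3p had no close match, with 0.63 for miR-53-5p and 0.60 for miR-240-3p at most.

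The 4 untested members gave few counts over all libraries together. miR-58b-5p had 78 counts in lin-28(0) and 74 in WT, and never more than 17 in a library. miR-58c had 66 counts in lin-28(0) and 18 in WT, and never more than 8 in a library. It was at 0 in 5 of 24 lin-28(0) and 13 of 24 WT libraries. miR-2209a-5p had 4 counts in lin-28(0) and 2 in WT, and miR-58b-3p 1 in each. Differences between the genotypes were not tested at this depth.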

How the data were processed

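Small RNAs of whole larvae were sequenced. Per the study's methods, the authors removed adapters and mapped reads in QuasR, with Bowtie (version not given in the sources used here), the ce10 genome and at most 100 hits for a read. A read was assigned to a miRBase version 22 strand if it ran in the same orientation and started within 3 bases of its 5′ end. The deposited counts are raw. Of the 3 sequencing reactions described, it is not stated which entered the counts. The deposited log2 values were recalculated from the counts (each library scaled to the average total, 8 added) and matched within 0.0005. They were not tested.

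Strands averaging at least 10 counts were tested with edgeR 4.0.16 (quasi-likelihood) in R 4.3.3, after TMM normalization over all listed strands. The model held a centred cubic B-spline of the hour (6 components) and its interaction with genotype, and gave contrasts over hours. Rhythm used cosine and sine terms with a linear trend. The period was taken from the rhythm of a let-7 strand in this series. p-values were Benjamini-Hochberg adjusted over the 246 strands (threshold 0.01), and for hairpin ratios (CPM plus 1) over 84 hairpins. The smallest p that the 100000 sign flips can give is 1e-05. The tests of the average genotype difference, of rhythm in WT and by sign flips ran first on simulated data, and the other tests did not.

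Library totals, from 2315421 to 20757531 counts, put a single count below 1 CPM in every library. Poisson and Wilson intervals at 95% cover counting error only, as reads were amplified by PCR and carried no molecular identifiers. No libraries were duplicates. Named strands were all members, the 3 nearest strands to each tested member, 3 comparison families, let-7-5p and 4 tissue markers. Members, lists and tests were chosen with earlier results of these data known. A planned search by seed was not run. Chromosomes are those of the RefSeq annotation (WBcel235), and no coordinates are given because the counts use ce10. Alternatives were other normalizations, tools (DESeq2 1.42.0, limma 3.58.1 on log2 of scaled counts plus 8), filters, splines, hours left out, shifted or rescaled, and a block on the hour.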

Additional observations from a re-analysis of the deposited data

Results flagged for a closer look

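The change of miR-80-5p from the first to the last 4 hours was larger in lin-28(0) than in WT by 2.23 on the log2 scale (edgeR adjusted p = 1.7e-04). Likewise, its genotype difference at 16 to 23 h exceeded that at 0 to 7 h by 1.499 (SE 0.28, edgeR adjusted p = 2.6e-04), a test that 7.72% of all tested strands passed. These came to attention because the difference between the genotypes itself passed a test. With 1 to 3 h left out of lin-28(0) they were 1.26 and 0.92 and did not pass. With 1 to 3 h left out of both genotypes they were 1.25 and 0.94 and did not pass either. The difference between the windows also failed to pass when each hour of lin-28(0) was moved by -2 h (0.93, edgeR adjusted p = 0.0337) or divided by a tempo factor of 1.12 (value 1.12, edgeR adjusted p = 0.0434), where the difference in change still passed (1.46 and 1.85). Over 16 alternative settings the adjusted p of the window difference ran from 1.5e-08 to 0.121.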

How the results depend on the processing

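The rises of miR-81-3p, miR-81-5p and miR-80-3p and the fall of miR-2209a-3p over time passed in both genotypes under all 15 alternatives run, and the rise of miR-80-5p in lin-28(0) did too. The family share and the hairpin ratios kept their direction throughout. Leaving 1 to 3 h out of lin-28(0) gave averages of -0.35 (miR-80-5p, no longer passing), -0.18 (miR-80-3p, now passing), 0.040 (miR-58a-3p, sign turned) and 0.072 (miR-81-5p, sign turned). It also gave 35 strands called on average (23 of them higher), 34 with any difference over time, 7 at 0 to 7 h and 0 members at 0 to 7 h, where 53 strands had an unadjusted p under 0.05. Leaving out 1 to 3 h in both genotypes, an alternative chosen after seeing the data, gave 0.38 (miR-2209a-3p, no longer passing), -0.20 (miR-80-3p, now passing) and 0.10 (miR-58a-3p, sign turned), with 20 strands called higher, 40 with any difference, 8 at 0 to 7 h and 0 members at 0 to 7 h (63 strands at an unadjusted p under 0.05). Shifting the lin-28(0) hours by -2 h gave -0.37 (miR-80-5p) and 0.28 (miR-2209a-3p), no longer passing, 0.66 (miR-82-5p), now passing, and 0.0099 (miR-81-3p) and 0.33 (miR-81-5p), with the sign turned, as was the late miR-81-3p difference (0.045). It left 32 strands and 1 member at 0 to 7 h. A shift of 2 h brought -0.25 (miR-80-3p), -0.22 (miR-81-3p) and -0.39 (miR-81-5p) past the threshold, with 91 strands called (45 lower), 178 with any difference, 85 strands and 4 members at 0 to 7 h and 44 strands at 16 to 23 h. Dividing the lin-28(0) hours by 1.12, the tempo fitted on strands outside the family, gave 0.61 (miR-82-5p, now passing), 0.11 (miR-81-5p), 0.012 (miR-82-3p) and a late miR-81-3p difference of 0.012, these 3 with the sign turned, and 10 strands at 16 to 23 h. Before these alternatives, 56 strands were called on average (40 higher, 16 lower), 69 with any difference, 49 at 0 to 7 h and 19 at 16 to 23 h. Among scalings, miR-80-3p passed with DESeq2 size factors (-0.17), with DESeq2 (-0.17), with scaling from outside the family (-0.16) and with TMM from tested strands only (-0.17, added after seeing the data). Total counts and limma turned the signs of miR-81-5p (0.025 and 0.030) and miR-82-3p (0.013 in each). The split of calls was 35 higher and 25 lower with DESeq2, 33 and 21 with its size factors, and 31 and 22 with TMM from tested strands. The spline with 4 components left 9 strands called lower, 32 with any difference and 12 at 16 to 23 h. Leaving out hour 0 gave 29 strands at 16 to 23 h, and at 0 to 7 h 1 member, with 22 strands higher and 31 lower. The cause of these changes was not tested. No link between same-hour libraries of the cultures other than the sampling time is stated, and whether they share more was not tested. Residuals of same-hour libraries had correlations from -0.23 to 0.62 (median 0.19), over 0.1 for 16 of 24 hours, and 2 of 24 libraries matched their own hour best. With the hour as a replicate block, 38 strands were higher and 15 lower, and 2 members passed. Depth limits miR-82-5p, miR-2209a-3p and the untested members most.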
